A study of Mus musculus with 7 samples.

Results

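The genes by which fat cells store and make lipid were followed in mouse uterine tissue after infusion of the chemokine CXCL12 into the uterus. The set held 33 genes, chosen by symbol, of the 23282 rows that each library's table lists. Earlier results of these data were known when it was chosen. It comprised 12 fat-cell genes, 3 brown-fat genes and 18 enzymes, transporters and factors of lipid metabolism that other cells also make. All 33 were found, and 31 had enough signal to be tested in the main fits.

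Female C57BL/6 mice, 6 weeks old, received 100 ng of recombinant human CXCL12 in 30 µl of saline in one uterine horn, and the opposite horn received saline alone. QuantSeq 3′ mRNA sequencing gave 7 libraries, of which 2 came from saline horns (saline), 2 from CXCL12 horns 3 days after infusion (CXCL12 Day 3) and 3 from CXCL12 horns 8 days after it (CXCL12 Day 8). For saline the day is not labelled, and the labels do not say whether each library came from a separate animal, so p-values measure only the spread between these libraries, which may be technical. The labels name no gene deletion or transgene.

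White fat cells hold triglyceride in a single large droplet that is coated by perilipins and CIDE proteins. Insulin promotes uptake and storage of fatty acids, and catecholamines acting on beta-adrenergic receptors promote their release by lipases. Fat cells also secrete hormones, among them adiponectin, leptin and, in mice, resistin, and they secrete the protease adipsin. Fat tissue lies beside the uterus and ovary in the abdomen, whereas the enzymes that make fatty acids are used by many cells, including epithelium. In whole tissue, fewer cells of a type and less RNA per cell cannot be told apart.

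The tables of 6 libraries held read counts, with totals from 6908790 to 12308982, and the table of CXCL12 Day 3 replicate 1 held log2 values of normalized counts. Levels are given as CPM (counts scaled to a library total of 1000000), with the log undone for that table, and 3 counts corresponded to between 0.244 and 0.434 CPM. The label of CXCL12 Day 8 replicate 1 decided its group, but its table carries Day 3 in name and column. Its Pearson r across 14032 genes, which are not independent replicates, was 0.965 and 0.966 with the Day 3 libraries and 0.913 and 0.915 with the other Day 8 libraries. The other Day 8 libraries had 0.958 with each other. By this measure the closeness to Day 3 was not particular to Day 8 replicate 1. Whether its label or the name of its table gives the right day was not tested. Saline replicate 2 had 0.967 and 0.964 with the Day 3 libraries, and 0.96 with Day 8 replicate 1. For comparisons with Day 8, the counts of lipid genes that passed are also given without Day 8 replicate 1. Sums, medians, counts of overlap, changes of single genes and results of the other lists include it unless stated. Ovary markers, 8 genes that include Star and Cyp11a1, summed to 188 and 1137 CPM in the saline libraries, 4.93 and 7.12 CPM at Day 3, and 80.8, 3616 and 9.66 CPM at Day 8. The 6 uterine genes, among them the homeobox gene Hoxa10, summed to between 945 and 1857 CPM in every library.

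The upstream sequences of 4 fat-cell genes are shown because the first 3 of them, which encode adiponectin, adipsin and leptin, shared a pattern of levels across the libraries that the fourth, Thrsp, did not. Each is the 250 bases before the annotated start in the RefSeq promoter table (GRCm38.p6), written 5′ to 3′ along the gene's strand. They lie at chr16:23146286-23146535 on the plus strand for Adipoq, chr10:79890603-79890852 on the plus strand for Cfd, chr6:29059971-29060220 on the plus strand for Lep and chr7:97417551-97417800 on the minus strand for Thrsp. Capitals mark the CCAAT box, read as CCAAT or as ATTGG on the opposite strand, and in Lep a match to TTGCNNAA, a form of the site bound by C/EBP factors.
Adipoq: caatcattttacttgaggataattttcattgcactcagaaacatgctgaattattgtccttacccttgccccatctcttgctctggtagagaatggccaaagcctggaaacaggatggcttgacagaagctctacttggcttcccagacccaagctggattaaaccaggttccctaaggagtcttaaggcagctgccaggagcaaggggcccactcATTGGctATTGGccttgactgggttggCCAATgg
Cfd: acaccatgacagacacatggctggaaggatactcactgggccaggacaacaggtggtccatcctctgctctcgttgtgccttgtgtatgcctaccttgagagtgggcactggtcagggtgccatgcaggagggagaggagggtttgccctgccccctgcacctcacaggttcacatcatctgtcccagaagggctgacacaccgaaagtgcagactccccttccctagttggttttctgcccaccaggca
Lep: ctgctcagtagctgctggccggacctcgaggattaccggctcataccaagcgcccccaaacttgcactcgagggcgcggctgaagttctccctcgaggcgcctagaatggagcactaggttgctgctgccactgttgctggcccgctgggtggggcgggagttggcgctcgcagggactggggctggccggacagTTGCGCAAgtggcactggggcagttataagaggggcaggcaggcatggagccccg
Thrsp: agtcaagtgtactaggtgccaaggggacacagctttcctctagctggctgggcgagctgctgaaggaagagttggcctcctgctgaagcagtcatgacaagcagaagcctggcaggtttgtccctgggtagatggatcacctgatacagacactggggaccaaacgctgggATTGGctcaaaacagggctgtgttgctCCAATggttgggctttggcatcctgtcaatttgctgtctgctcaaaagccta
The table held promoters of 21 of the 33 genes, searched on both strands for 4 motifs that do not overlap in the sequences shown. These genes had 26 promoters in the table. CCAAT was present in 8 of the 26, which belong to 7 genes, and in 33.8% of all 32851 promoters, and it was added to the search after the sequences had been read. TTGCNNAA was present in 4 of the 26 (of Cidec, Lep, Plin1 and Pparg) and in 9.56% of all promoters. TATAAA was present in 2 of the 26 against 12.4% of all promoters. TCACNCCAC, a form of the sterol regulatory element, was present in 1 of the 26, of Acsl1, against 1.05%. The copies in Adipoq began 34, 27 and 7 bases before the start, those in Thrsp 79 and 52 bases before it, and the match in Lep 55 bases before it. No matched letters were found in the Cfd window, which says only that these motifs are not in those bases.

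The fat-cell genes were high in both saline libraries and in CXCL12 Day 3 replicate 1, and low in CXCL12 Day 3 replicate 2 and in all 3 CXCL12 Day 8 libraries. The 12 genes together summed to 1237 and 3397 CPM in the saline libraries, to 3331 and 414 CPM in Day 3 replicates 1 and 2, and to 326, 521 and 389 CPM in Day 8 replicates 1 to 3. The saline mean was 5.62 times the Day 8 mean. Fabp4 and Cfd together made up between 50.6% and 70% of the sum in each library. Within a group the sums differed 2.75-fold between the saline libraries, 8.04-fold between the Day 3 libraries and 1.60-fold between the highest and the lowest Day 8 library. The difference between the Day 3 libraries was thus larger than that between the saline and Day 8 means.

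**Figure D1:**
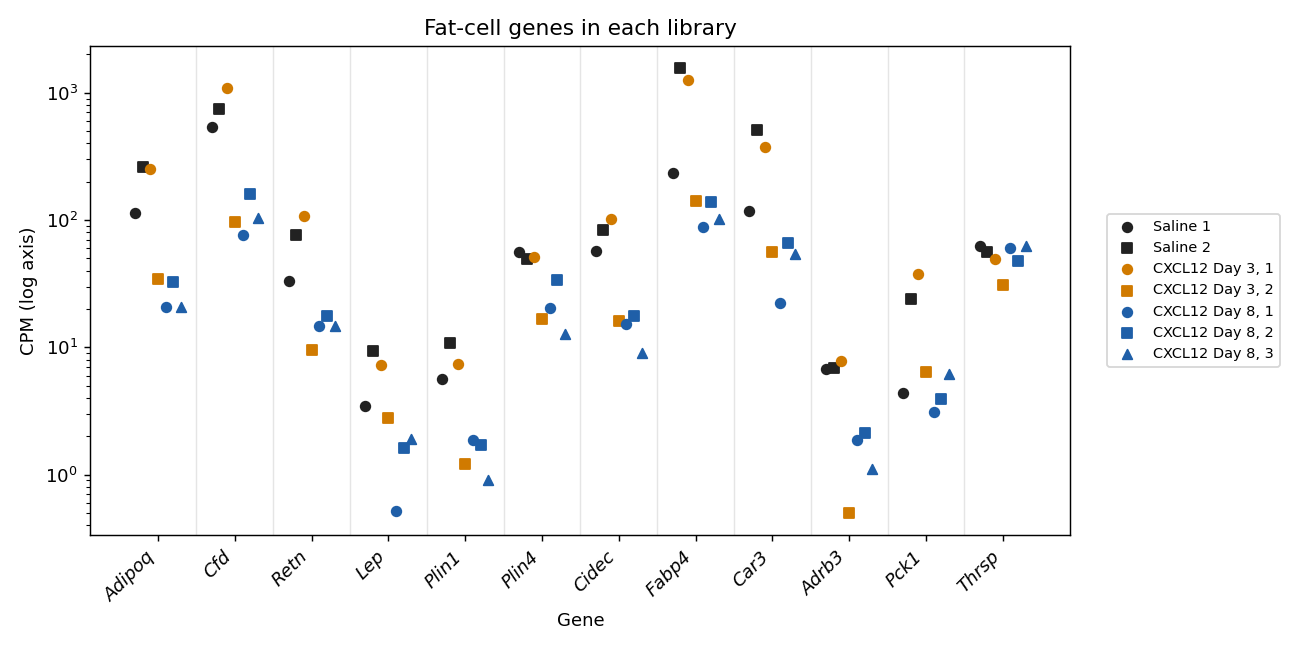
Level of each of the 12 fat-cell genes (x axis) in each of the 7 libraries, as CPM on a log axis (y axis). Colours mark the group and shapes the replicate. For Adipoq, Cfd and most other genes the saline libraries and Day 3 replicate 1 lie above the other 4 libraries, whereas for Thrsp all 7 lie between 31.0 and 62.7 CPM.

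Among the secreted products, Adipoq, which encodes the insulin-sensitizing hormone adiponectin, had 113 and 261 CPM in the saline libraries, 254 and 34.5 CPM at Day 3, and 20.8, 32.3 and 20.8 CPM at Day 8. No Day 8 library reached the lower saline library, and the Day 3 libraries lay on either side of it. The mean was 187 ± 104 CPM (SD, n = 2) with saline and 24.7 ± 6.64 CPM (SD, n = 3) at Day 8. Its log2 fold change at Day 8 against saline was -2.69 (SE 0.43), the second most negative among the 31 genes tested. Cfd, which encodes the complement protease adipsin, had 540 and 745 CPM with saline, 1084 and 96.2 CPM at Day 3, and 76.9, 159 and 103 CPM at Day 8. The mean was 643 ± 145 CPM (SD, n = 2) with saline and 113 ± 42.2 CPM (SD, n = 3) at Day 8. Its change was -2.27 on the log2 scale (SE 0.36). The saline libraries differed only 1.38-fold in Cfd, while the Day 3 libraries differed 11.3-fold.

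Retn, which encodes resistin, had 33.2 and 76.8 CPM with saline, 107 and 9.53 CPM at Day 3, and 14.6, 17.5 and 14.7 CPM at Day 8. The groups at Day 8 and with saline did not overlap, and the log2 fold change was -1.59 (SE 0.41). Lep, which encodes the satiety hormone leptin, was low throughout, with 24 and 89 counts in the saline libraries, 28 counts in Day 3 replicate 2, and 5, 20 and 19 counts at Day 8. On the CPM scale these were 3.47, 9.38, 2.81, 0.521, 1.63 and 1.91, and Day 3 replicate 1 had 7.27 CPM. The log2 fold change at Day 8 was -2.03 (SE 0.72), and the call was lost without saline replicate 2 (-1.05) and without Day 8 replicate 1 (-1.68).

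The lipid droplet genes were high in the same libraries. Plin1, the perilipin that guards the droplet against lipases, had 5.64 and 10.8 CPM with saline, 7.46 and 1.204 CPM at Day 3, and 1.88, 1.71 and 0.905 CPM at Day 8. Cidec, which encodes the protein that fuses droplets into larger ones, had 57.6 and 83.02 CPM with saline, 103 and 16.2 CPM at Day 3, and 15.2, 17.7 and 9.05 CPM at Day 8. The log2 fold changes at Day 8 were -2.21 (SE 0.60) for Plin1 and -2.08 (SE 0.38) for Cidec. Plin4, a perilipin of nascent droplets, had 56.6 and 49.4 CPM with saline, 51.0 and 16.7 CPM at Day 3, and 20.2, 33.8 and 12.7 CPM at Day 8. Its log2 fold change of -0.99 (SE 0.41) lay just short of the 2-fold limit, with an unadjusted P of 0.0456 by edgeR.

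Fabp4, the fatty acid carrier of fat cells that endothelium and macrophages also make, showed the widest ratio between the saline libraries among the 12 fat-cell genes. It had 235 and 1561 CPM with saline, 1249 and 142 CPM at Day 3, and 87.9, 138 and 101 CPM at Day 8. Its log2 fold change at Day 8 was -2.83 (SE 0.71) and became -0.79 without saline replicate 2. The ratio of Fabp4 to Cfd was 0.436 in saline replicate 1 and 2.09 in saline replicate 2, against 0.867 to 1.48 in the other libraries. In the same libraries 10 endothelial markers summed to 350 and 227 CPM with saline, 216 and 251 CPM at Day 3, and 181, 380 and 387 CPM at Day 8. The 9 macrophage markers summed to 937 and 724 CPM with saline, 417 and 320 CPM at Day 3, and 268, 685 and 710 CPM at Day 8. Neither sum had the order of Fabp4, and the part of these cells in its level was not tested.

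Car3, a carbonic anhydrase abundant in fat cells and in slow muscle, had 118 and 513 CPM with saline, 374 and 56.6 CPM at Day 3, and 22.4, 65.6 and 54.3 CPM at Day 8. Its log2 fold change at Day 8 was -2.54 (SE 0.67) and became -1.02 without saline replicate 2. The 8 skeletal muscle genes, which mark fast fibres for the most part, summed to 69.6 and 78.5 CPM with saline, 167 and 190 CPM at Day 3, and 172, 57.7 and 70.1 CPM at Day 8, mainly from Acta1 and Tnni2. The fast myosins Myh1 and Myh4 had no count in the 6 count libraries, and the part of muscle in Car3 was not tested. Adrb3, the beta-adrenergic receptor through which catecholamines start lipolysis in fat cells, had 47 and 65 counts with saline, 5 counts in Day 3 replicate 2, and 18, 26 and 11 counts at Day 8. These were 6.80, 6.85, 0.502, 1.88, 2.11 and 1.11 CPM, beside 7.85 CPM in Day 3 replicate 1, and the log2 fold change at Day 8 was -1.74 (SE 0.54). The saline libraries differed by a factor of 1.01 in this gene, the closest of the 12.

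Pck1 and Thrsp departed from the other fat-cell genes. Pck1 encodes a phosphoenolpyruvate carboxykinase that supplies the glycerol backbone of triglyceride in fat. It had 4.34 and 23.8 CPM with saline, 37.6 and 6.42 CPM at Day 3, and 3.12, 3.90 and 6.14 CPM at Day 8, so that saline replicate 1 lay within the range of the Day 8 libraries. The log2 fold change of -1.48 (SE 0.71) did not pass, and it became 0.33 without saline replicate 2. Thrsp encodes a nuclear protein that promotes the expression of lipogenic enzymes. Its levels were 62.7 and 56.4 CPM with saline, 49.2 and 31.0 CPM at Day 3, and 60.5, 47.4 and 62.7 CPM at Day 8, and its log2 fold change at Day 8 was 0.20 (SE 0.28).

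**Figure D2:**
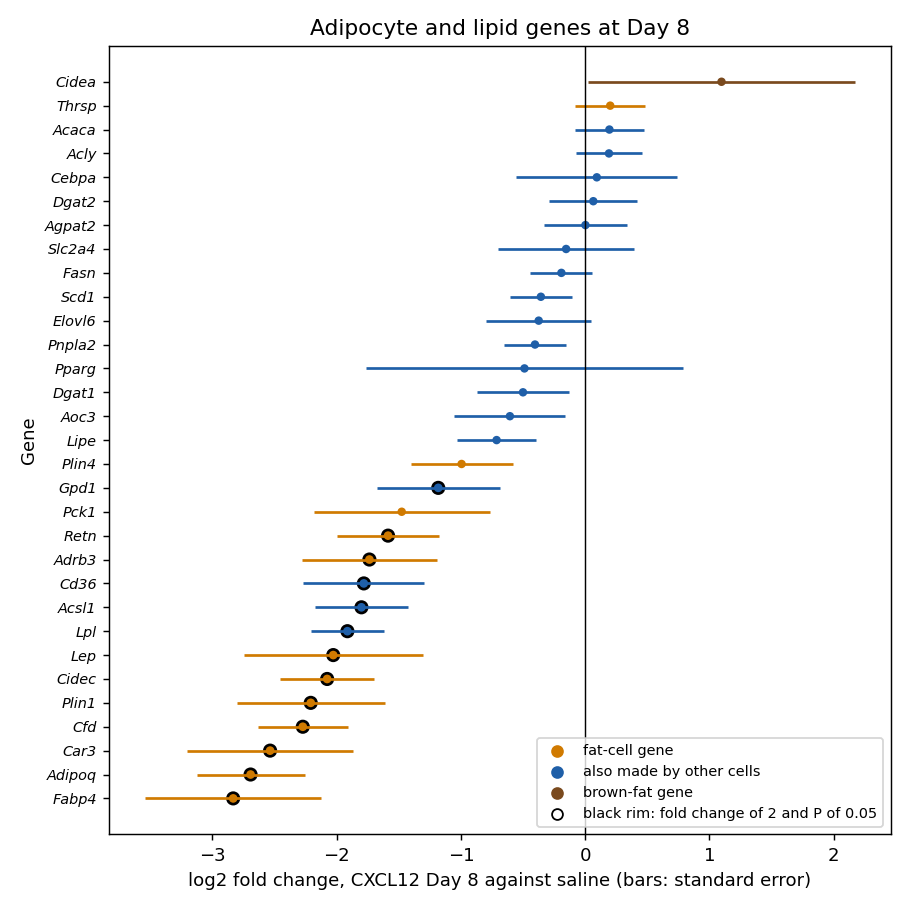
Log2 fold change of CXCL12 Day 8 against saline (x axis) for the 31 genes tested (y axis, ordered by value), from edgeR on the 6 count libraries. Bars are the standard error, colours mark fat-cell genes, brown-fat genes and genes also made by other cells, and a black rim marks a fold change of 2 with P under 0.05, which 13 genes had, all of them lower.

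To ask which genes differed 8 days after infusion, the Day 8 and saline libraries were compared by edgeR over 15388 genes. The limits were the fold change and P of the study, a 2-fold change with P under 0.05 before adjustment. The study also set an FDR of 0.1, which is applied below as the adjusted p. Of the 31 genes, 13 passed, all of them lower at Day 8, where 2.94% of all genes passed, 1.42% passed in that direction and 1.53% in the other. They were 9 of the 12 fat-cell genes (all but Plin4, Thrsp and Pck1) and 4 of the 18 genes also made by other cells (Lpl, Acsl1, Cd36 and Gpd1). The median log2 fold change was -2.05 over the fat-cell genes, -0.39 over the genes also made by other cells and -0.01 over all genes tested. With Benjamini-Hochberg adjustment at 0.1 edgeR passed no gene, while 14 of the 31 and 658 of all genes had an unadjusted P under 0.05. DESeq2 passed 7 of the 33 (Adipoq, Cfd, Lpl, Cidec, Fabp4, Acsl1 and Car3) and 49 of 18837 genes at that adjusted p, and limma passed none, with 11 of the 31 at an unadjusted P under 0.05. Without Day 8 replicate 1, 15 of all genes passed that adjusted p in edgeR, none of them among the 31, whose smallest adjusted p by Benjamini-Hochberg went from 0.956 to 0.227 in edgeR.

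With libraries left out or a block added, counts within the set are of lower genes, and those of all genes take both directions. The count of 13 rested in part on saline replicate 2. Without this library 5 genes passed in edgeR (Adipoq, Cfd, Cidec, Lpl and Acsl1), and 1527 of all genes passed. Without saline replicate 1 the count stayed at 13 while all genes went to 286, without Day 8 replicate 3 the count was 12 and all genes 229, and without Day 8 replicate 1 it was 12 and all genes 1027. Saline replicate 2 and Day 8 replicate 2 had the highest ovary markers, and without both of them 6 of the genes and 1143 of all genes passed. With the replicate number as a block, 10 of the genes and 157 of all genes passed.

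Of the 31 genes, 20 had every Day 8 library below both saline libraries in CPM, against 22.4% of all genes tested in that direction and 3.75% in the other. This scale moved the median of all genes by -0.24 on the log2 scale. After TMM scaling, which set that median to 0.0043, the count was 19 of 31 against 9.42% of all genes (9.74% in the other direction), and 10 of the 12 fat-cell genes were counted under either scaling. Acaca overlapped between the groups in CPM and lay above both saline libraries in every Day 8 library after TMM scaling, and Acly and Cebpa overlapped under either scaling.

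Among the genes of fatty acid uptake, Lpl, the lipase that releases fatty acids from circulating lipoproteins, had 380 and 475 CPM with saline, 320 and 97.7 CPM at Day 3, and 77.2, 118 and 91.9 CPM at Day 8. The mean was 428 ± 66.9 CPM (SD, n = 2) with saline and 95.9 ± 20.9 CPM (SD, n = 3) at Day 8. On the log2 scale the change was -1.91 (SE 0.29), with the smallest unadjusted P of the 31 genes in edgeR. Cd36, a fatty acid transporter of fat cells, endothelium and macrophages, had 43.3 and 74.1 CPM with saline, 45.4 and 9.63 CPM at Day 3, and 6.46, 18.5 and 18.9 CPM at Day 8. The log2 fold change was -1.78 (SE 0.49), and the endothelial and macrophage sums given above were at their lowest in Day 8 replicate 1, the lowest library for Cd36 as well. Whether those cells carried the Cd36 difference was not tested. Acsl1, which activates fatty acids with coenzyme A, had 33.7 and 41.1 CPM with saline, 43.4 and 18.2 CPM at Day 3, and 7.92, 12.8 and 6.34 CPM at Day 8, a log2 fold change of -1.80 (SE 0.37). Slc2a4, the insulin-responsive glucose transporter, had 12.4 and 3.69 CPM with saline against 4.58 to 7.44 CPM at Day 8, and its log2 fold change was -0.15 (SE 0.55).

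**Figure D3:**
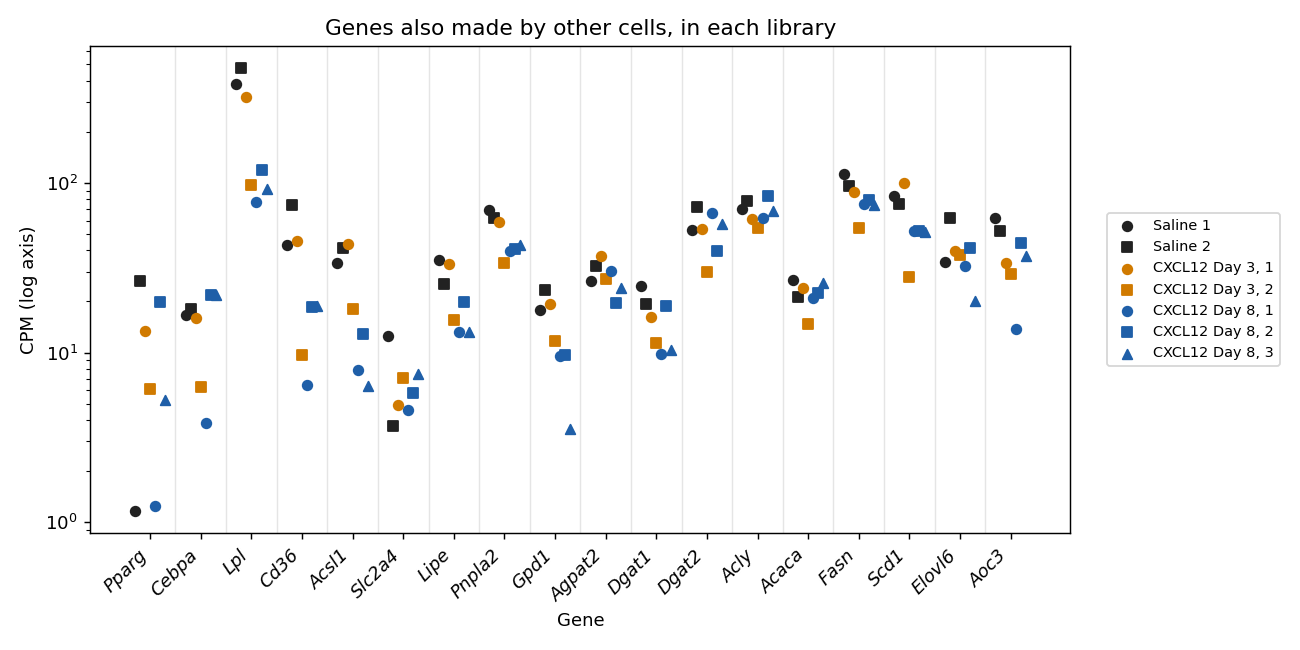
Level of the 18 genes also made by other cells (x axis) in each of the 7 libraries, as CPM on a log axis (y axis), with colours for the group and shapes for the replicate. Lpl, Cd36 and Acsl1 show saline and Day 3 replicate 1 above the other libraries, Pparg spreads from 1.16 to 26.4 CPM between the saline libraries, and for Acly, Acaca and Agpat2 the saline and Day 8 libraries overlap.

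In triglyceride synthesis and breakdown the differences were smaller. Gpd1, which makes glycerol 3-phosphate, had 17.8 and 23.5 CPM with saline, 19.2 and 11.7 CPM at Day 3, and 9.58, 9.67 and 3.52 CPM at Day 8, and its log2 fold change of -1.18 (SE 0.50) just passed. It no longer passed without any one of saline replicate 1, saline replicate 2, Day 3 replicate 2, or Day 8 replicates 2 or 3. The acyltransferases had log2 fold changes at Day 8 of 0.00 (SE 0.34) for Agpat2, -0.50 (SE 0.37) for Dgat1 and 0.07 (SE 0.36) for Dgat2. The lipases that release stored fatty acids, Lipe and Pnpla2, had log2 fold changes of -0.71 (SE 0.32) and -0.40 (SE 0.25). Lipe levels were 35.2 and 25.5 CPM with saline, 33.4 and 15.4 CPM at Day 3, and 13.2, 19.8 and 13.2 CPM at Day 8, so the groups at Day 8 and with saline did not overlap. Aoc3, an amine oxidase of fat cells and smooth muscle, had 61.8 and 52.2 CPM with saline, 33.6 and 29.0 CPM at Day 3, and 13.8, 44.2 and 37.1 CPM at Day 8. Its Day 3 libraries differed only 1.16-fold.

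None of the enzymes of fatty acid synthesis passed at Day 8. Acly makes acetyl-CoA from citrate, Acaca carboxylates it, and Fasn builds the chain. Acly had 70.1 and 78.7 CPM with saline, 61.0 and 54.0 CPM at Day 3, and 62.3, 83.2 and 68.7 CPM at Day 8. Fasn had 112 and 95.9 CPM with saline, 88.6 and 54.2 CPM at Day 3, and 75.2, 78.7 and 73.7 CPM at Day 8. The log2 fold changes at Day 8 were 0.19 (SE 0.27) for Acly, 0.20 (SE 0.28) for Acaca and -0.19 (SE 0.25) for Fasn. Elovl6, which elongates palmitate, had -0.37 (SE 0.42). Scd1, which desaturates fatty acids, had 83.5 and 75.4 CPM with saline, 100 and 27.9 CPM at Day 3, and 52.0, 51.8 and 51.4 CPM at Day 8, and a log2 fold change of -0.36 (SE 0.25). The Day 8 levels of Fasn and Scd1 lay below both saline libraries, by less than 2-fold on average.

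The factors that drive fat-cell differentiation varied as much within groups as between them. Pparg, the nuclear receptor that directs fat-cell genes and is also made by epithelium and macrophages, had 1.16 and 26.4 CPM with saline, 13.4 and 6.12 CPM at Day 3, and 1.25, 19.8 and 5.23 CPM at Day 8. The saline libraries thus differed 22.8-fold, and the log2 fold change of -0.49 had an SE of 1.28. Cebpa, a partner of Pparg in fat-cell differentiation, had 16.6 and 18.02 CPM with saline, 16.1 and 6.22 CPM at Day 3, and 3.85, 21.8 and 21.7 CPM at Day 8. Its log2 fold change was 0.09 (SE 0.65), and the low value at Day 8 came from replicate 1.

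Of the brown-fat genes, Ucp1, which uncouples respiration to make heat, had 3 counts in Day 8 replicate 1 and 0 counts in the other 5 count libraries, and was near 0 in the log2 table of Day 3 replicate 1. Elovl3, an elongase of brown fat, had between 0 and 5 counts. Cidea, a droplet protein of brown fat that some epithelia also make, had 0.434 and 1.05 CPM with saline, 2.67 and 3.21 CPM at Day 3, and 0.937, 2.93 and 0.302 CPM at Day 8. It had 3 counts in saline replicate 1 and in Day 8 replicate 3, 9 and 10 counts in Day 8 replicate 1 and saline replicate 2, and 32 and 36 counts in Day 3 replicate 2 and Day 8 replicate 2. The log2 fold change at Day 8 was 1.10 (SE 1.07). Of 7 other brown-fat genes, 6 were tested and none passed at Day 8, and Zic1 had no count in the 6 count libraries.

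To ask which genes differed 3 days after infusion, limma was run on quantile-normalized log2(CPM + 1) values of all 7 libraries, a scale that understates the change of low genes, over 14032 genes of which 3.78% passed the same limits. Of the 31 genes, 1 was lower, Lpl at -1.30 (SE 0.48), against 2.15% of all genes in that direction, and 1 was higher, Cidea at 1.46 (SE 0.51), against 1.62%. None of the 12 fat-cell genes passed, and their median log2 fold change was -0.62 beside 0.01 over all genes. Where a library is left out below, the numbers of all genes take both directions. No gene passed an adjusted p of 0.1 in limma with Benjamini-Hochberg adjustment, where 1028 of all genes and 2 of the 31 had an unadjusted P under 0.05, nor in edgeR on estimated counts, where 1254 and 0 had. Without Day 3 replicate 1, 10 of the genes were lower at the same limits, among 243 of all genes. The count was 0 without Day 3 replicate 2, without saline replicate 1 and without saline replicate 2, among 222, 174 and 2631 of all genes. Both Day 3 libraries lay below both saline libraries for 8 of the 31 genes in CPM, against 40% of all genes (12.1% in the other direction), and for 2 after TMM scaling, against 22.9% (26.2% in the other direction).

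Day 8 was compared with Day 3 in the same fit, and the comparisons with saline share the saline libraries while this one shares the Day 3 and Day 8 libraries with them. Of the 31 genes, 3 were lower at Day 8, Adipoq at -1.84 (SE 0.74), Lep at -1.41 (SE 0.53) and Acsl1 at -1.59 (SE 0.42), against 2.19% of all genes in that direction, 1.64% in the other and 3.83% in all. The median over the fat-cell genes was -1.41 beside 0.00 over all genes. Here too, the numbers of all genes with a library left out take both directions. No gene passed an adjusted p of 0.1 in limma with Benjamini-Hochberg adjustment, where 1021 of all genes and 3 of the 31 had an unadjusted P under 0.05, nor in edgeR on estimated counts, where 1243 and 10 had. The number lower was 15 without Day 3 replicate 2, among 279 of all genes, and 0 without Day 3 replicate 1, among 247. It was 2 without Day 8 replicate 1, where 1432 of all genes passed. Without that library 555 of all genes also passed the adjusted p of 0.1 in limma, none of them among the 31. Every Day 8 library lay below both Day 3 libraries for 6 of the 31 genes and above them for 1, against 18.7% and 15% of all genes in CPM and 17.1% and 16.3% after TMM scaling.

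The Day 3 libraries were otherwise the most alike of all pairs, with a Pearson r of 0.985 over 14032 genes. Replicate 1 was at least 2-fold above replicate 2 on the log2(CPM + 1) scale in 122 genes, 0.869% of those measured, and at least 2-fold below in 92, or 0.656%. As 1 library stands on each side, these are differences of size with no test. Of the 12 fat-cell genes, 11 were in the higher set (all but Thrsp), as were 7 of the 18 genes also made by other cells, and no gene of the 31 was in the lower set. The median log2 difference was 2.57 over the fat-cell genes and -0.04 over all genes. Of the 122 genes, 18 belonged to the 31, 8 to a list of other fat-cell genes such as Apoc1 and Sncg, and 96 to neither. The 20 largest differences, named after their values were seen, held 8 of the 31 genes with Cfd, Retn and Fabp4 foremost, 2 other fat-cell genes, and 10 more that included Retnla, Mrap, Serpina3c and major urinary protein genes such as Mup2. Reads with several alignments were counted, so the levels of near-identical urinary protein genes are uncertain. Endothelial, epithelial, mesothelial, smooth muscle and uterine lists had no gene past 2-fold between these libraries, the macrophage list had 1 of 9 and the liver list 1 of 2. The ovary list had none, but it summed to only 4.93 and 7.12 CPM here, where log2(CPM + 1) understates a difference. No blood gene was past 2-fold either, but their median difference was 0.84 on the log2 scale. The blood genes summed to 25410 and 15770 CPM at Day 3, to 6793 and 10990 CPM with saline and to 10260, 18150 and 9549 CPM at Day 8, and their part in the difference between the Day 3 libraries was not tested.

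**Figure D4:**
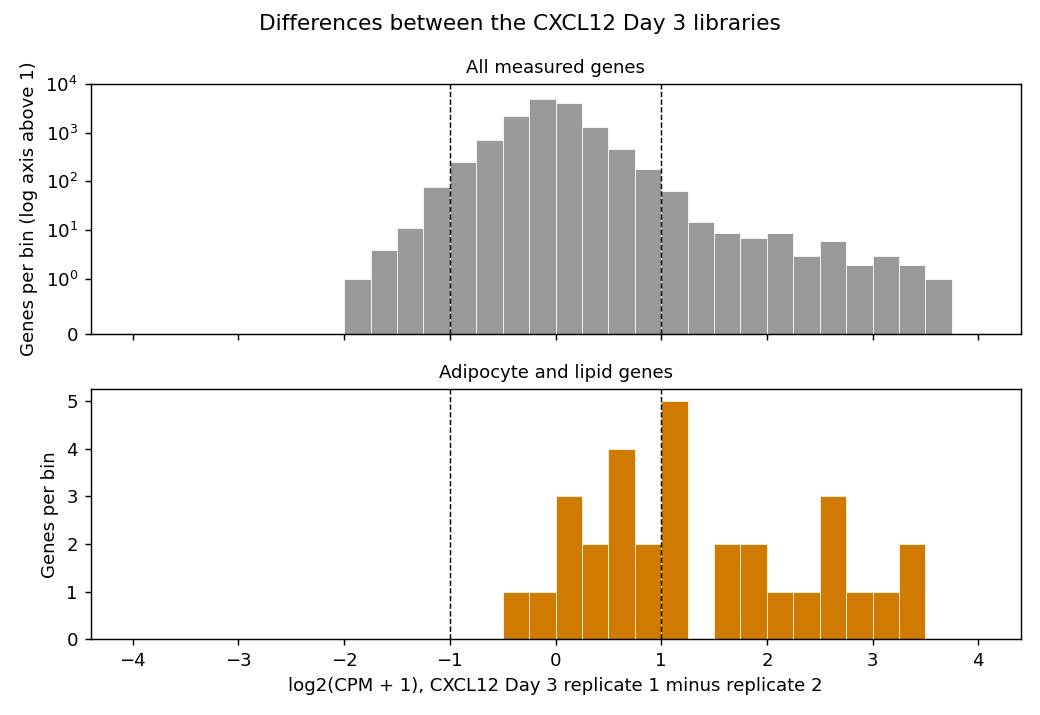
Number of genes (y axis) by the difference between CXCL12 Day 3 replicate 1 and replicate 2 in log2(CPM + 1) (x axis, bins of 0.25), for all 14032 measured genes (upper panel, log axis) and for the 31 adipocyte and lipid genes (lower panel, linear axis). Dashed lines mark a 2-fold difference, and 18 of the 31 genes lie beyond the right line and none beyond the left.

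The saline libraries differed more broadly, with a Pearson r of 0.906 and with 10.4% of genes at least 2-fold higher and 10.9% at least 2-fold lower in replicate 2. There 6 of the 12 fat-cell genes were in the higher set and none in the lower, while of all 31 genes 7 were higher and 1, Slc2a4, was lower. The ratio of replicate 2 to replicate 1 varied from gene to gene, at 6.63 for Fabp4, 5.48 for Pck1 and 4.33 for Car3, but 1.44 for Cidec, 1.01 for Adrb3 and 0.873 for Plin4. Replicate 2 also had 6 of 7 measured ovary genes and 4 of 5 blood genes at least 2-fold higher, and 4 of 7 fat precursor genes and 3 of 6 uterine genes at least 2-fold lower. What part of the difference in fat-cell genes went with these markers was not tested. Ovary markers and fat-cell genes summed to 188 and 1237 CPM in saline replicate 1, and to 1137 and 3397 CPM in saline replicate 2. At Day 3 these sums were 4.93 and 3331 CPM in replicate 1, and 7.12 and 414 CPM in replicate 2. At Day 8 they were 80.8 and 326 CPM in replicate 1, 3616 and 521 CPM in replicate 2, and 9.66 and 389 CPM in replicate 3.

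**Figure D5:**
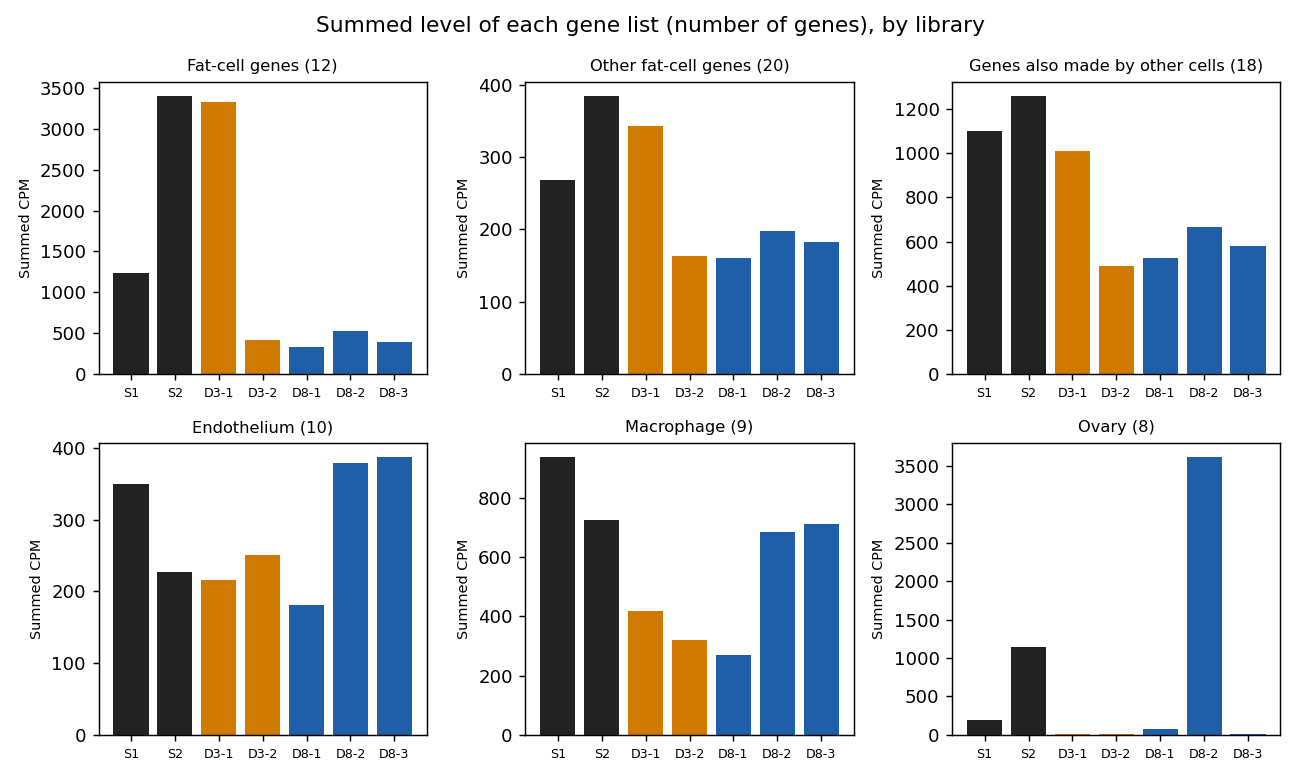
Summed CPM (y axis, from 0, scaled to each panel) of 6 gene lists in each library (x axis; S saline, D3 CXCL12 Day 3, D8 CXCL12 Day 8, with the replicate number). Bars of the fat-cell list, the other fat-cell list and the genes also made by other cells are highest in the saline libraries and Day 3 replicate 1, whereas the ovary list is highest in Day 8 replicate 2.

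The sum of a second list of 20 fat-cell genes was high in the same libraries. It was 268 and 384 CPM with saline, 343 and 163 CPM at Day 3, and 160, 198 and 183 CPM at Day 8. The log2 fold change at Day 8 was below 0 for 16 of these genes and above 0 for 4. Its median was -0.82, beside -0.01 over all genes tested. At Day 8, 5 of the 20 were lower at the same limits, against 1.42% of all genes in that direction. The lower genes were Cyp2e1 at -2.68 (SE 0.49), which encodes a cytochrome P450 of liver and fat, Nnat at -1.88 (SE 0.43), Orm1 at -1.82 (SE 0.74), Tusc5 at -1.73 (SE 0.55) and Apoc1 at -1.71 (SE 0.62). Of 20 tested genes of lipid storage in cells at large and 12 of lipogenesis in cells at large, none passed at Day 8, with medians of -0.18 and 0.16. Of 8 fat precursor genes none passed, with a median of 0.01.

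Markers of other cells differed in direction at Day 8. The median log2 fold change was 0.49 over 10 endothelial genes with none passing, -0.41 over 9 macrophage genes with 2 lower, 0.29 over 7 mesothelial genes with none passing, and 0.80 over 7 smooth muscle genes with 2 higher. It was -0.05 over 6 epithelial genes with 1 higher, 0.19 over 6 uterine genes, -0.08 over 5 oviduct genes and 1.06 over 7 ovary genes with none passing. Over 3 tested liver genes, whose 6-gene sum lay between 1.60 and 9.48 CPM, the median was 0.17 with 1 higher. Over 5 blood genes it was 1.05 and over 4 skeletal muscle genes 0.49, with none passing. The part of these cells in the levels of the lipid genes was not tested.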

How the data were processed

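QuantSeq 3′ mRNA libraries were made from 500 ng of total RNA of uterine tissue and read as single ends of 75 bases. Per the methods of the authors, alignment was by Bowtie2, counting by Bedtools over both unique and multiple alignments, and normalization by quantiles in edgeR. The submitters' processing notes name mm10 and hg19, and versions and annotation are not given in the sources used here. The authors deposited raw read counts for 6 libraries, and for CXCL12 Day 3 replicate 1 they deposited log2 values of normalized counts. Undoing the log and dividing by 1.0515 brought 98.2% of 2914 low values within 0.1 of a whole number, where chance gives 20%, and this gave the estimated counts used in alternatives. Rows without a symbol were dropped, and 35 symbols on more than one row, none of them among the 33 genes, were kept apart.

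Levels are CPM of the library total. For Day 8 against saline the quasi-likelihood test of edgeR 4.0.16 was applied to the 6 count libraries, after filterByExpr and TMM scaling, with 3 groups and 3 residual degrees of freedom. Comparisons with Day 3 used limma 3.58.1 with a trend (4 residual degrees of freedom) on quantile-normalized log2(CPM + 1) of 7 libraries, for genes with a mean of at least 1. Benjamini-Hochberg adjustment covered all genes tested. The study's limits were used (fold change of 2, P of 0.05, adjusted p of 0.1). The SE of an edgeR change was taken as its size over the root of F. The fits were run on simulated counts with large changes and the same dispersion for every gene. That setting differs from these libraries and does not show how the fits perform on them. The 33 genes and the marker lists were chosen with earlier results of these data known. By rule, all 33 genes could be named, as could the 3 most abundant genes of each other list and markers at 0, and genes named outside the rule (those of the second fat-cell list that were lower, Star, Cyp11a1 and Hoxa10 as examples of their lists, and those most different between the Day 3 libraries) were chosen after their values were seen. Alternatives were upper-quartile and quantile normalization, DESeq2 1.42.0, other filters and pseudocounts, estimated counts, the replicate number as a block, other divisors for the levels and leaving out each library. Exchanged block numbers, leaving out both libraries with the highest ovary markers, and TMM scaling for overlap were added after the data were seen. A result for a gene of the second fat-cell list is not reported here. R 4.3.3 was used. Intervals and the floor of 3 counts cover counting error only.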

Additional observations from a re-analysis of the deposited data

Results flagged for a closer look

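Acly, which encodes ATP citrate lyase, was picked out because both Day 3 libraries lay below the saline mean and all 3 Day 8 libraries lay above it on the quantile-normalized log2(CPM + 1) scale. The differences from the saline mean were -0.07 and -0.27 at Day 3 and 0.06, 0.40 and 0.09 at Day 8. The Day 3 mean difference minus the Day 8 mean difference was -0.35. This is the direct comparison of Day 8 with Day 3 with its sign turned, in which Acly did not pass in limma (0.35, SE 0.22, unadjusted P 0.144, Benjamini-Hochberg adjusted p 0.725).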

How the results depend on the processing

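At Day 8 the 13 lower genes became 10 to 14 under the other normalizations, filters and tools, and all genes passing became 157 with the replicate block. The numbers of all genes in this paragraph take both directions. Leaving out single libraries gave 5 to 13 lower genes and 229 to 1527 of all genes, and leaving out both libraries with the highest ovary markers gave 6 and 1143. Correlations of same-numbered deviations were -0.21 for saline with Day 8, -0.09 for saline with Day 3 and 0.032 for Day 3 with Day 8. With a single difference per group, these cannot show whether same-numbered libraries came from the same animal. In the main fits the replicate numbers were not taken as pairs. Exchanged saline numbers in the block gave 11 lower genes and 336 of all genes. With the block at Day 3 and at Day 8 against Day 3, 0 and 2 genes were lower and 477 and 369 of all genes passed. At Day 3 the 1 lower gene became 0 with no filter and with edgeR on estimated counts, all genes became 861 without quantile normalization, and single libraries left out gave 0 to 10 lower genes and 174 to 2631 of all genes. At Day 8 against Day 3 the 3 lower genes became 1 with no filter and 10 with edgeR on estimated counts, where 828 of all genes passed, and single libraries left out gave 0 to 15 and 247 to 1432. The 8 genes with both Day 3 libraries below both saline libraries in CPM became 2 after TMM scaling.

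The fat-cell sum ratios of saline replicate 2 over 1, Day 3 replicate 1 over 2, and highest over lowest Day 8 library were 2.99, 8.34 and 1.48 with TMM, and 1.15, 4.21 and 1.71 for the median in place of the sum. Without Fabp4 the first and second became 1.83 and 7.66.

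Of 491 values of single genes at Day 8 under the alternatives, 429 kept their side of the limits and their direction, 31 no longer passed, 4 newly passed and 27 turned direction. Genes that turned direction had not passed at first. With single libraries left out Pck1 ranged from -2.25 to 0.33, Elovl6 from -0.78 to 0.20, Pparg from -1.89 to 3.19, Cebpa from -0.20 to 0.54, Dgat2 from -0.19 to 0.38, Agpat2 from -0.23 to 0.23, Slc2a4 from -0.75 to 0.88 and Cidea from -0.0030 to 1.96. Without the libraries highest in ovary markers Pck1 was 0.42, Pparg 1.78 and Cebpa -0.074. With quantile normalization Pparg was 0.037, Cebpa -0.17 and Agpat2 -0.013. With the replicate block Pparg was 0.049 and Cebpa -0.60, and with exchanged numbers 0.016 and -0.59. Agpat2 was -0.0033 with upper-quartile normalization, -0.0025 with the saline and Day 8 libraries alone and -0.00033 with estimated counts. Causes were not tested. Ucp1 and Elovl3, with at most 5 counts in a count library, were too low for the filters of the main edgeR and limma fits. DESeq2 tested all 33 genes, and neither Ucp1 nor Elovl3 was among the 7 that passed its adjusted p.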
